A study of Mus musculus with 8 samples.

Results

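The response to dexamethasone was examined in lungs that had already been given retinoic acid, by setting the 2 arrays titled RA-Dex against the 2 arrays titled RA. These are 4 of the 8 arrays of the series, and they were taken by their titles alone. Whole lung of young mice was measured on an Affymetrix mouse expression array, with total RNA from frozen tissue. The RA arm had retinoic acid on day 3 and saline on day 4, and the RA-Dex arm had retinoic acid on day 3 and dexamethasone on day 4, so that every lung compared here carried the retinoic acid treatment. The other 4 arrays, from oil and dexamethasone (Dex) and from the arm titled Dil, served as the most similar comparison. No label defines Dil, and it was taken as oil followed by saline because no other arm is left for that pair. No dose, strain or hour of collection is given in the sources used here. Arrays carry the letter a or b, and whether these are separate animals, pools or repeat hybridisations of an RNA is likewise not given, so the p-values measure the spread between these arrays, which may be technical.

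Dexamethasone is a synthetic glucocorticoid. It binds the glucocorticoid receptor, a transcription factor that enters the nucleus, raises genes near its DNA response elements and lowers many genes of inflammation and proliferation. In newborn rodents glucocorticoids are known to thin the walls of the air sacs early and to stop the outgrowth of septa that divides them into alveoli, whereas retinoic acid, acting through nuclear receptors of its own, is known to favour septation. The series is titled for that inhibition and for protection from it, and the comparison asks which genes dexamethasone still moved a day after retinoic acid.

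The deposited signals were on a linear scale and had been brought to 1 level on all arrays, with a trimmed mean of 800.41 to 800.44. Signals under 85.3 were set to that floor before log2 was taken, and 7309 probe sets, standing for 5618 named genes, were bright enough to be tested. The arrays of a group correlated across probe sets at 0.945 (RA) and 0.965 (RA-Dex), and an RA array with an RA-Dex array at 0.924 to 0.935. The label of lung fitted its markers. The surfactant protein gene Sftpc stood at 72540 and 75240 in RA and at 80810 and 73920 in RA-Dex, and the club cell secretoglobin Scgb1a1 at 43230 and 49670 against 50820 and 47830, and neither was called in limma (adjusted p = 0.879 and 0.814).

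In lungs given retinoic acid, dexamethasone raised 167 probe sets and lowered 89 at an adjusted p under 0.05 in limma, which is 2.28% and 1.22% of those tested. The largest rises of named genes were those of the transcription factor Zbtb16, the sulfotransferase Sult1a1, the growth factor binding protein Igfbp3 and the metabolic kinase Pdk4. The falls included the homeobox factor Meox2, the DNA repair gene Ercc1 and St8sia2, an enzyme of neural adhesion. Those of Dctpp1 (log2 fold change -2.6), Colq (-2.4) and Rangrf (-2.3) were larger, but came from dim probe sets and were lost in several alternatives. Among the calls, 107 rises and 49 falls were at least a doubling or its inverse, that is, a log2 fold change of 1 or more in size. All 256 called probe sets had groups that did not overlap, a property shared by 44.9% of all probe sets tested. All 30 probe sets with a size between 2 and 3 on the log2 scale and all 4 with a larger one were called, whereas 0 of 5866 with a size under 0.5 were, and 1155 probe sets had an unadjusted p under 0.05. With no RA-Dex array b the counts were 60 and 21, and with no RA-Dex array a 72 and 35. Falls numbered 46 without RA array a, 50 without RA array b, 58 without Dex array a and 59 without Dex array b.

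**Figure D1:**
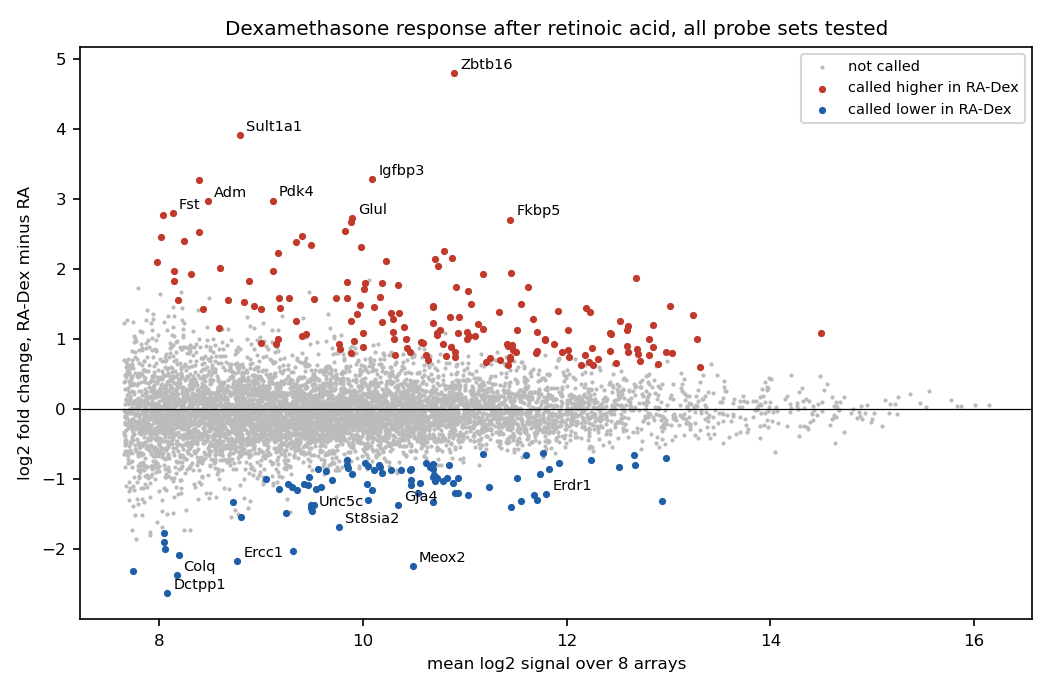
Log2 fold change of RA-Dex minus RA (vertical axis) against the mean log2 signal over all 8 arrays (horizontal axis) for the 7309 probe sets tested. Red points are the 167 called higher, blue points the 89 called lower and grey points the rest, and Zbtb16 stands apart at the top.

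The genes listed as glucocorticoid targets stood at the upper end of the response. Of 41 genes listed 35 were tested, and 21 rose, 0 fell and 14 were not called. Over all probe sets tested 2.28% rose. The list was chosen with earlier results of these data known. Its count is therefore a description and cannot show that known targets lead the response. Their median log2 fold change was 0.997 (range -0.81 to 4.80), against -0.05 over all probe sets tested, and 32 of the 35 were above 0. Without RA-Dex array b 13 of them rose.

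The largest change in the whole comparison was that of Zbtb16, which encodes a zinc finger transcription factor (PLZF). Its signal was 350 and 269 in the RA arrays and 8492 and 8557 in the RA-Dex arrays, a 27.8-fold rise (log2 fold change 4.80 ± 0.199 SE, adjusted p = 8.42e-07). The groups lay far apart, and the 2 RA-Dex arrays were almost level. Without retinoic acid Zbtb16 went from 642 and 892 in Dil to 6817 and 6532 in Dex, so that RA arrays were the lowest and RA-Dex arrays the highest of the 8. The difference between both responses, 1.66 on the log2 scale, did not pass (adjusted p = 0.213).

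Fkbp5, a chaperone partner that holds the glucocorticoid receptor back and is itself one of its targets, was at 900 and 1134 in RA and at 6732 and 6463 in RA-Dex (log2 fold change 2.71 ± 0.161, adjusted p = 1.18e-05). Klf9, a Krüppel-like factor, was at 1354 and 1337 against 3883 and 3763 (1.51 ± 0.155, adjusted p = 0.000474). The clock repressor Per1 was at 764 and 563 against 2393 and 2187 (1.80 ± 0.2, adjusted p = 0.000713). In each of these genes the RA-Dex signals stood well above the RA signals, as they did in Ddit4, an inhibitor of the growth kinase mTOR (765 and 844 against 3604 and 3478, 2.14 ± 0.156). Cebpd, a transcription factor of the acute phase response, reached some of the highest levels among the targets, with 4660 and 3334 in RA and 14570 and 14280 in RA-Dex (1.87 ± 0.163, adjusted p = 0.000171). Cebpd was named after its values were seen. Of 13 clock genes 2 rose, Per1 and Per2 (1.82 ± 0.335), and 1 without RA array a or either RA-Dex array (adjusted p = 0.0637 to 0.148 for Per2). Tsc22d3 (GILZ) and the receptor gene Nr3c1 were too dim to be tested.

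**Figure D2:**
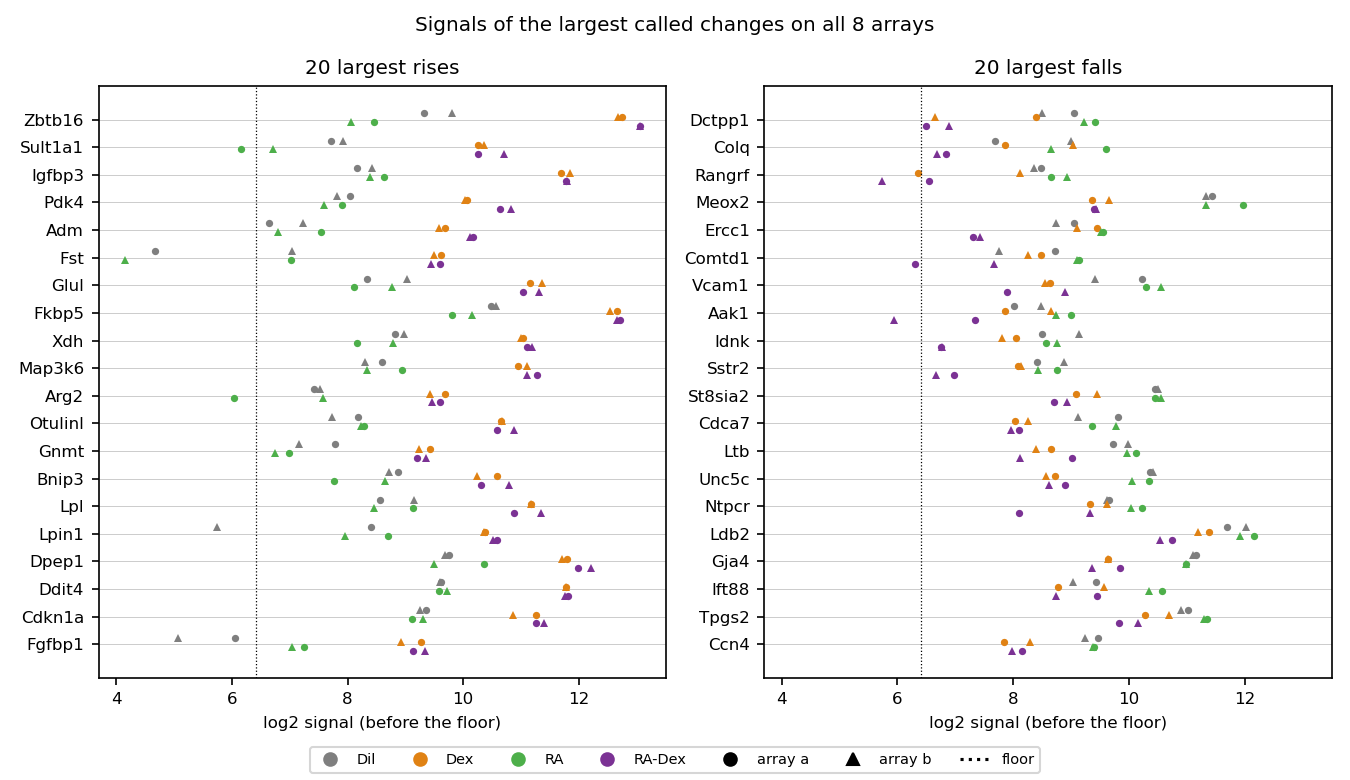
Log2 signals on all 8 arrays (horizontal axis, before the floor) of the 20 genes with the largest called rises and the 20 with the largest called falls. Colours mark the 4 arms, circles array a, triangles array b, and the dotted line the floor of 85.3 on the log2 scale. The RA-Dex points of the rises lie to the right of the RA points in every row, which was a condition of the choice. In most rows they lie near the Dex points.

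Because the response element of the receptor is known, promoters of the called genes were searched for it, and the sequences around the matches are shown. The motif was the loose palindrome GNACANNNTGTNC, read on both strands, in RefSeq promoters of assembly GRCm38.p6 that run from 250 bases before to 50 bases after a gene's start. It occurred in 5 of 120 promoters of genes called higher (4.17%), in 0 of 64 of genes called lower and in 20 of 4534 of all genes tested (0.441%). In all 27025 promoters of the table its share was 0.537%. The full element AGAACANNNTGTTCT occurred in none of the promoters of called genes and in 3 of the whole table. A match is a run of letters and does not show that the receptor bound there.

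The stretches below hold the match in capitals with 60 bases on each side, in the direction of transcription. Map3k6 and Txnip lie on the plus strand (chr4:133240577-133240709 and chr3:96557725-96557857), and Slc10a6 and Tinagl1 on the minus strand (chr5:103629494-103629626 and chr4:130174877-130175009). Slc10a6 and Tinagl1 were picked for this match after their values were seen.
Map3k6: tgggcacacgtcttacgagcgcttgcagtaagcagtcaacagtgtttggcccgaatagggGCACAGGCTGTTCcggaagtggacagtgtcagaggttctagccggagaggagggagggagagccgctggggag
Slc10a6: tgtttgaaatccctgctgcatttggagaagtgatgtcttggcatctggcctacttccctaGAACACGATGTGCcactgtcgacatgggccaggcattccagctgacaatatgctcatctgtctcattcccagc
Tinagl1: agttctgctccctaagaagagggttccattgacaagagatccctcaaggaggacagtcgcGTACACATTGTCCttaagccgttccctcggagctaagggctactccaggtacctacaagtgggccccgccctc
Txnip: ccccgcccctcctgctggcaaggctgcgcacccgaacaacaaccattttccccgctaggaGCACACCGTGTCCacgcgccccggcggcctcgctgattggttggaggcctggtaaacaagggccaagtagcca
The matches end 169, 151, 135 and 160 bases before the start in Map3k6, Slc10a6, Tinagl1 and Txnip. The fifth match, GGACAGCGTGTAC in Gnmt (chr17:46729134-46729146, minus strand), lies 19 to 31 bases after the start.

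The genes with those promoters rose as follows. Map3k6, a kinase of the stress-activated MAP kinase cascade, was at 492 and 325 in RA and at 2479 and 2205 in RA-Dex (2.55 ± 0.231, adjusted p = 0.000197). Slc10a6, a carrier of sulfated steroids, was at 548 and 582 against 2154 and 1822 (1.81 ± 0.215), and Tinagl1, a matrix protein, at 1301 and 1821 against 6061 and 5837 (1.95 ± 0.203). Gnmt, which disposes of methyl groups, was at 128 and 108 against 589 and 655 (2.40 ± 0.329, adjusted p = 0.0503 without RA-Dex array b). All 4 had RA-Dex signals more than 3 times the highest RA signal. Txnip, which binds thioredoxin and limits glucose uptake, rose less, from 3883 and 4712 to 7770 and 7436 (0.83 ± 0.140), and a dimmer probe set of Txnip was at -0.15 and not called. The Txnip call was lost without RA-Dex array a (adjusted p = 0.0878) or RA-Dex array b (0.0716).

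Among the strongest rises were several enzymes of metabolism. Pdk4, the kinase that shuts off pyruvate dehydrogenase, was at 240 and 193 in RA and at 1584 and 1815 in RA-Dex (2.98 ± 0.225, adjusted p = 6.94e-05). Lpl, the lipase that frees fatty acids from circulating fat, was at 562 and 350 against 1882 and 2603 (2.32 ± 0.277), and a second probe set of it rose by 1.93 ± 0.290. Xdh, which makes uric acid, was at 287 and 440 against 2191 and 2343 (2.67 ± 0.221, adjusted p = 0.000132). In these 3 genes the lowest RA-Dex array was over 3 times the highest RA array. Hk2, the first enzyme of glycolysis, was at 294 and 332 against 805 and 884 (1.43 ± 0.219, adjusted p = 0.0716 without RA-Dex array b). Of 28 fuel and lipid genes 5 rose and 2 fell, with a median of 0.17, and 3 rose without RA-Dex array b. The falls were small and were lost in several alternatives. The larger was that of the desaturase Scd1, also named after its values were seen, at 10620 and 10200 in RA and at 5197 and 6930 in RA-Dex, while both Dil arrays (5784 and 6082) were near the RA-Dex level. With 1 of the 4 RA or RA-Dex arrays left out, 0 or 1 of the 2 falls was called.

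Single enzymes of sulfur, nitrogen and redox metabolism rose as well. Sult1a1, a sulfotransferase of phenols, was at 71.8 and 105 in RA and at 1218 and 1668 in RA-Dex (3.91 ± 0.261, adjusted p = 2.95e-05), a size that depends on the floor because 1 RA array lay under it. Glul, glutamine synthetase, was at 277 and 436 against 2105 and 2526 (2.73 ± 0.278), whereas its brighter probe set, which stands for Glul in the lists, was at -0.08 and was not called. Gpx3, the secreted glutathione peroxidase, was bright in both arms, at 5898 and 5435 against 16640 and 14930 (1.48 ± 0.127, adjusted p = 0.00017). In all 3 the RA-Dex arrays were above both RA arrays. Of 33 antioxidant and metal genes 2 rose, Gpx3 and Txnip, and 0 fell, with a median of -0.11; the count of rises was 1 without either RA-Dex array and 4 without RA array b. Otulinl, a relative of a ubiquitin hydrolase, was at 312 and 301 against 1536 and 1881 (2.47 ± 0.222), and its other probe set rose by 2.39 ± 0.237. Arg2, an arginase, was at 65.6 and 190 against 773 and 705 (2.54 ± 0.374), with 1 RA array under the floor, and was lost without RA-Dex array a or b (adjusted p = 0.0542 and 0.0506).

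Several genes of secreted proteins were among the largest rises, although most members of their pathways were not called. Igfbp3, which binds insulin-like growth factors, was at 397 and 335 in RA and at 3513 and 3569 in RA-Dex (3.28 ± 0.186, adjusted p = 1.11e-05), and a second probe set gave 3.26 ± 0.521. Adm, which encodes the vasodilator adrenomedullin, was at 187 and 112 against 1155 and 1116 (2.97 ± 0.333, adjusted p = 0.000753). Fst, the activin antagonist follistatin, was at 131 and 17.7 against 775 and 697 (2.80 ± 0.362), with 1 RA array under the floor. In RA, Adm and Fst were near or under the floor, whereas Igfbp3 was above the floor on both arrays. All of them were well above the floor in both RA-Dex arrays. Igfbp6, a further binding protein, was at 2677 and 2431 against 5170 and 4596 (0.93 ± 0.154, adjusted p = 0.0878 without RA-Dex array a). Of 17 vasoactive genes 3 rose, Adm, the prostacyclin synthase Ptgis (1.08 ± 0.206) and the angiotensin-converting enzyme Ace (1.04 ± 0.216), of which 1 held without RA array a, RA-Dex array a or RA-Dex array b (adjusted p = 0.085 to 0.127 for Ptgis and 0.0777 to 0.2 for Ace). Of 10 genes of the insulin-like growth factor axis 2 rose (1 without RA-Dex array a) and 0 fell. Edn1, the vasoconstrictor endothelin, named here after its values were seen, had a probe set that rose by 1.46 ± 0.197 and a brighter one at 0.82 ± 0.262 that was not called (adjusted p = 0.138).

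Among genes of septation itself the changes were few. Pdgfra, the receptor of the mesenchymal cells that become septal myofibroblasts, was at 2452 and 1849 in RA and at 4870 and 4327 in RA-Dex (1.11 ± 0.168, adjusted p = 0.00431), though a dim probe set of it was at -0.10 and the call was lost without RA-Dex array a (adjusted p = 0.0589). Its ligand Pdgfa was at 4012 and 4026 against 2694 and 2440 (-0.65 ± 0.151, adjusted p = 0.0419), a call lost when any 1 of the 6 arrays of Dex, RA and RA-Dex was left out (adjusted p = 0.085 to 0.267). Thus receptor and ligand had opposite signs, and only the receptor's change was a doubling. Lox, which crosslinks elastin, was at 1327 and 1091 against 3750 and 4333 (1.75 ± 0.190, adjusted p = 0.000672), with a dim probe set at -0.03. Elastin itself had its brightest probe set at 47610 and 43080 against 59250 and 49420 (0.26 ± 0.146, adjusted p = 0.446), while another Eln probe set was called higher (0.92 ± 0.181, adjusted p = 0.0188). Of 11 elastic fibre genes 2 rose, Lox and the TGF-beta binding protein Ltbp2, and 1 rose when either array of RA-Dex or Dex, or RA array a, was left out (adjusted p = 0.0718 to 0.243 for Ltbp2). Fgf18, a growth factor of alveolar mesenchyme, was at -0.64 (adjusted p = 0.35). Of 35 collagen and basement membrane genes 0 were called in limma, with 6 higher and 1 lower at an unadjusted p under 0.05 (2 rises and 1 fall were called without RA array b).

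Signalling genes around these changed singly. Of 11 genes of the PDGF and FGF pathways and their inhibitors 3 rose and 1 fell, and the rises were 0 without RA-Dex array a. Besides Pdgfra they were the receptor Fgfr1, at 875 and 841 against 2023 and 1450 (0.998 ± 0.194), and Fgfbp1, a carrier that frees FGF from matrix, at 151 and 131 against 564 and 648 (2.10 ± 0.344). Fgfr1 was lost without RA array a, RA array b or RA-Dex array a (adjusted p = 0.0564 to 0.169), and Fgfbp1 without RA-Dex array a or b (0.0686 and 0.114). Of 24 TGF-beta, activin and BMP genes 3 rose, and 1 of them, Fst, held when an RA-Dex array, a Dex array or RA array a was left out. Of 22 hedgehog, Wnt and Notch genes 0 rose, 6 were above 0 and the median was -0.38. The receptor Fzd2 was the single fall (-0.80 ± 0.189, adjusted p = 0.0454), and it was lost without any 1 array of Dex, RA or RA-Dex (adjusted p = 0.0831 to 0.283). Of 19 proteases and inhibitors 3 rose, the cathepsins Ctsh, at 6395 and 8002 against 14330 and 14390 (1.005 ± 0.146), and Ctsl (0.83 ± 0.163), and Timp3, an inhibitor of matrix metalloproteinases (1.07 ± 0.164), and 1 rose without RA-Dex array b. That array ended the call of Timp3 (adjusted p = 0.0716), and that of Ctsl was also lost without RA array a or RA-Dex array a (0.0952 and 0.0961).

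The vascular growth genes were mostly not called. Of 32 genes of endothelium and its growth factor VEGF 0 rose and 2 fell, with a median of 0.18. Gja4, the gap junction protein of arterial endothelium, was at 2020 and 2024 in RA and at 922 and 661 in RA-Dex (-1.37 ± 0.191, adjusted p = 0.0027). Vcam1, through which leukocytes adhere to endothelium, was at 1253 and 1501 against 238 and 475 (-2.03 ± 0.343, adjusted p = 0.00766; 0.0752 without RA-Dex array a), and a dim probe set of it was at -0.47. Both genes were lower on each RA-Dex array than on each RA array. Kdr, the main VEGF receptor of endothelium, was at 2178 and 1879 against 1369 and 1191, which did not pass (-0.66 ± 0.173, adjusted p = 0.0678). In Dex against Dil it fell by 1.06, and the difference between both values (0.40) did not pass (adjusted p = 0.898). Flt1 (0.18, adjusted p = 0.759) and Vegfa (-0.24, adjusted p = 0.674) were not called.

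The largest fall of a named gene whose call held without any 1 array was that of Meox2, a homeobox factor of mesenchyme and vessels. Its signals were 4001 and 2584 in RA and 674 and 691 in RA-Dex (-2.24 ± 0.218, adjusted p = 0.00035). It fell without retinoic acid too, from 2754 and 2590 in Dil to 659 and 802 in Dex (-1.88, adjusted p = 0.000908). Ldb2, a cofactor of LIM domain transcription factors, was at 4577 and 3851 against 1711 and 1487 (-1.40 ± 0.175, adjusted p = 0.00149). Of 21 mesenchymal and homeobox factors 2 fell, Meox2 and Snai1, and 0 rose. Snai1 was lost without RA array a or either array of Dex or RA-Dex (adjusted p = 0.0501 to 0.214).

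Falls were also found among genes of axon guidance and neural adhesion, many of which lung mesenchyme and vessels express too. Of 18 such genes 4 fell and 0 rose, with a median of -0.37, and over all probe sets tested 1.22% fell. This list too was chosen with earlier results of these data known, so its count is a description. St8sia2, which builds polysialic acid chains on the adhesion molecule NCAM, was at 1399 and 1510 in RA and at 418 and 487 in RA-Dex (-1.69 ± 0.201, adjusted p = 0.000965). Unc5c, a netrin receptor, was at 1308 and 1061 against 474 and 393 (-1.45 ± 0.207, adjusted p = 0.00309). Cxcl12, a chemokine that draws cells bearing Cxcr4, was at 1519 and 1350 against 531 and 635 (-1.30 ± 0.182, adjusted p = 0.0027), and its 2 dimmer probe sets were at -1.46 and -0.84 without passing. In all 3 the RA-Dex signals were under 50% of the RA signals. Cxcl12 was also counted in the list of inflammatory signalling. Efna1, an ephrin, was the fourth, and its call was lost without any 1 array of Dex, RA or RA-Dex (adjusted p = 0.0555 to 0.172). Adh1, an alcohol dehydrogenase that also acts on retinol, was the only one of 12 retinoid pathway genes called in limma, at 9965 and 13150 against 4367 and 4905 (-1.31 ± 0.177, adjusted p = 0.00233).

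The cell cycle genes had medians of opposite sign by phase. Of 30 genes of replication licensing and DNA synthesis 2 fell and 0 rose, 23 were below 0 and the median was -0.41. Of 31 genes of mitosis 1 rose and 0 fell, 26 were above 0 and the median was 0.38. At an unadjusted p under 0.05, 11 of the licensing genes were lower and 1 higher, and 11 of the mitosis genes higher and 0 lower. Over all probe sets tested the median was -0.05 and 44% were above 0. Mcm5, a subunit of the replicative helicase, was at 2738 and 3342 in RA and at 1332 and 1246 in RA-Dex (-1.23 ± 0.198, adjusted p = 0.00579), and Mcm3 at 1660 and 1930 against 821 and 864 (-1.09 ± 0.177, adjusted p = 0.00622). Both subunits were below the RA range on each RA-Dex array. Without RA-Dex array b both calls were lost (adjusted p = 0.0716 and 0.0563), and without RA-Dex array a that of Mcm3 (0.0653).

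Ccnb2, a cyclin of mitosis, was at 3158 and 2943 in RA and at 5030 and 4724 in RA-Dex (0.68 ± 0.138, adjusted p = 0.0218). That call was lost when any 1 array of Dex, RA or RA-Dex was left out (adjusted p = 0.0506 to 0.168), and the list held 2 rises without Dil array a or Dil array b. In both arms without retinoic acid Ccnb2 was higher still, at 5119 and 5818 in Dil and 6437 and 6226 in Dex. The summed signal of the 31 mitosis genes had the same order, with 33900 and 36480 in RA, 44760 and 42960 in RA-Dex, and 49850 to 55670 in Dil and Dex. RA arrays were therefore the lowest of the 8, and the RA-Dex arrays lay between them and the arms without retinoic acid; that order was not tested. For licensing and DNA synthesis the sums were 32350 and 33260 in RA and 24840 and 25710 in RA-Dex, and the Dex sums (27480 and 29240) were below the Dil sums (38230 and 36930) as well.

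**Figure D3:**
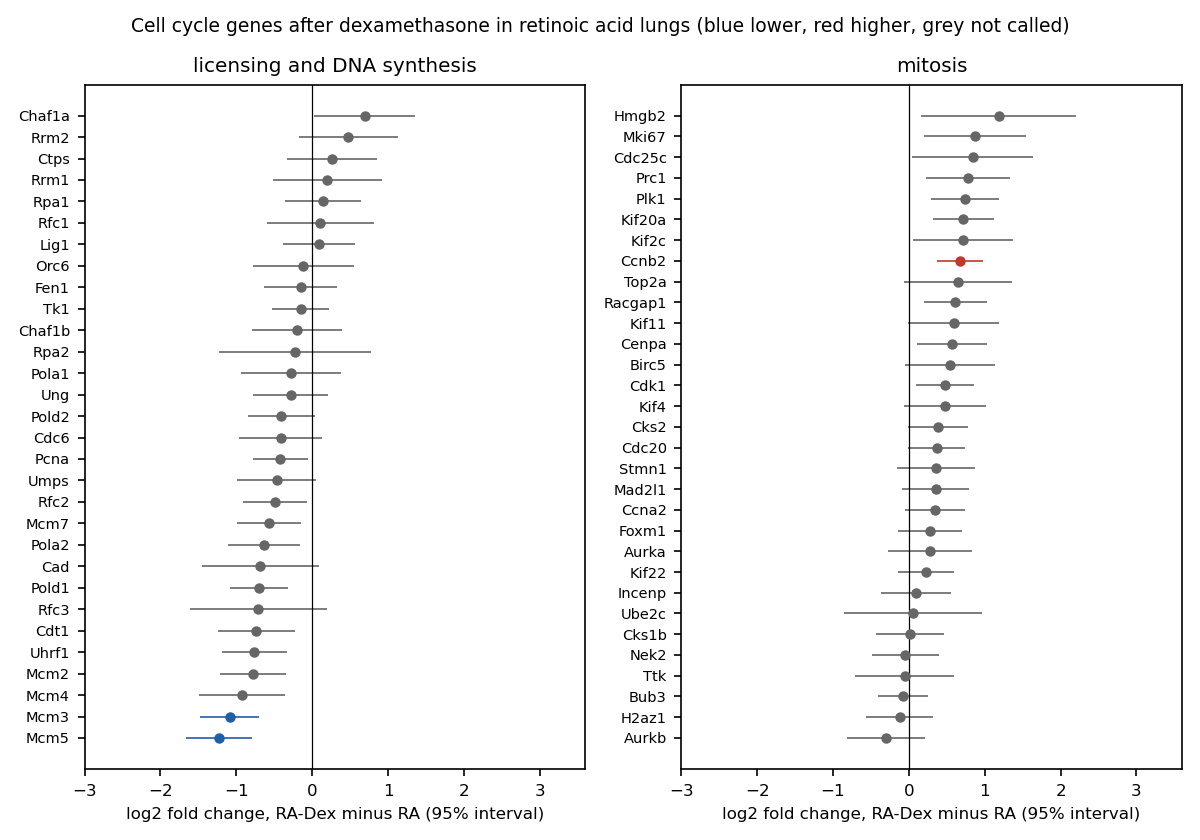
Log2 fold change of RA-Dex minus RA (horizontal axis) for 30 genes of licensing and DNA synthesis and 31 genes of mitosis, with points for the estimate and bars for its 95% interval. Mcm5 and Mcm3 (blue) were called lower and Ccnb2 (red) higher; the grey points were not called, and most of the first list lie left of 0 and most of the second right of it.

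Regulators of the G1 phase changed in both directions. Cdkn1a, which encodes the cyclin-dependent kinase inhibitor p21, was at 557 and 629 in RA and at 2456 and 2697 in RA-Dex (2.12 ± 0.192, adjusted p = 0.000197). Ccnd1, the cyclin that drives entry into the cycle, was at 2429 and 2286 against 1135 and 1128 (-1.06 ± 0.151, adjusted p = 0.00304), and its dim probe set at -0.33. Of 19 genes of G1 3 rose and 2 fell. The 3 rises were 1 without either RA-Dex array, either Dex array or RA array b, and the 2 falls were 1 without any 1 array of Dil, RA or RA-Dex. Of 22 genes of the immediate early and stress response 3 rose and 0 fell (1 fell without RA array b), among them Fos (1.77 ± 0.192) and Gadd45g (1.71 ± 0.219). Fos, a subunit of the AP-1 transcription factor, was at 833 and 859 against 2880 and 2895. Bcl2l1, which protects from apoptosis, was at 3883 and 4060 against 9285 and 7640 (1.09 ± 0.140, adjusted p = 0.00167), and Bnip3, a mitochondrial protein of cell death and mitophagy, at 218 and 402 against 1271 and 1780 (2.35 ± 0.297).

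Ercc1, whose product is part of the nuclease complex that cuts damaged DNA in excision repair, had a low level in the RA-Dex arm alone. It was at 747 and 731 in RA and at 158 and 172 in RA-Dex (-2.17 ± 0.252, adjusted p = 0.000869). In the other arms it was at 530 and 427 in Dil and at 694 and 552 in Dex, so that both RA-Dex arrays were under all 6 others. The difference between both dexamethasone responses was -2.55 and did not pass (adjusted p = 0.0795). Both RA-Dex arrays were under the other 6 in 35 of the 89 probe sets called lower and in 443 of all 7309. The 89 were chosen by low RA-Dex signals, and 77 of them had both Dex arrays under both Dil arrays too. How often a fall was confined to the RA-Dex arm cannot be read from that count. Of 23 DNA repair genes 2 fell, Ercc1 and the base excision nuclease Apex1, and Apex1 was lost without RA-Dex array a or b (adjusted p = 0.0793 and 0.0551).

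Of 29 genes of inflammatory signalling 5 rose and 2 fell, with a median of -0.15, and 3 rose without either RA-Dex array. Several of the rises were of genes known as brakes on inflammation. Dusp1, a phosphatase that switches off MAP kinases, was at 4065 and 4175 in RA and at 10330 and 8552 in RA-Dex (1.19 ± 0.155, adjusted p = 0.00175). Nfkbia, the inhibitor of NF-kappa B, was at 3165 and 3108 against 9477 and 7652 (1.44 ± 0.184, adjusted p = 0.0016). The kinase Map3k6, which is not such a brake, was the largest of the 5 rises (2.55). The falls were Cxcl12 and Vcam1, the latter lost without RA-Dex array a (adjusted p = 0.0752). Irf8, a transcription factor of myeloid and B cells, was the only one of 16 interferon-related genes called in limma, at 1016 and 997 against 487 and 420 (-1.15 ± 0.198, adjusted p = 0.0989 without RA-Dex array b).

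Among markers of blood cells few were called. Of 18 macrophage genes 3 fell, 0 rose and 16 were below 0, with a median of -0.36. Their summed signal was 38910 and 36990 in RA and 27670 and 29000 in RA-Dex, and 34120 to 34170 in Dil and 28680 to 29010 in Dex. Tyrobp, a signalling adaptor of myeloid cells, was at 2137 and 2131 against 1050 and 1009 (-1.05 ± 0.175, adjusted p = 0.0069). It was lost without RA-Dex array a (adjusted p = 0.0555) or RA-Dex array b (0.077), and the list held 0 falls without RA-Dex array a, 1 without RA-Dex array b, RA array a or RA array b, and 5 without Dil array a. The defining marker Adgre1 was near or under the floor on the RA and RA-Dex arrays and was not tested. Of 11 B lymphocyte genes 0 were called in limma, 9 were below 0 and the median was -0.56 (4 were lower at an unadjusted p under 0.05). Their sums were 12150 and 11060 in RA and 9521 and 10230 in RA-Dex. The largest part of each sum was Cd24a, with 5403 and 4613 in RA and 4730 and 5944 in RA-Dex, and its log2 fold change was 0.09. Of 10 neutrophil genes 1 rose, the iron-binding lipocalin Lcn2, at 2723 and 3089 against 5569 and 6015 (0.997 ± 0.152), while 3 others were lower at an unadjusted p under 0.05. The Lcn2 call was lost without RA-Dex array b, although its log2 fold change was still 0.94, and a dimmer probe set of Lcn2 had the opposite sign. In whole lung, fewer cells of a type and less RNA per cell cannot be told apart, and the part of these cells in the falls of Vcam1, Irf8 and Cxcl12 was not tested.

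Few genes of the epithelial lists were called. Of 9 alveolar type II cell genes 0 were called in limma (1 higher and 3 lower at an unadjusted p under 0.05). With quantile normalization 1 of them was called lower, and with a stricter signal filter 2 were. Their sums were 149800 and 155900 in RA and 162200 and 156900 in RA-Dex, and Sftpc alone was the largest part of each. Of 9 type I cell genes 2 rose, Igfbp6 and Pdpn, with a median of 0.33 (3 higher and 0 lower at an unadjusted p under 0.05). Pdpn, the podoplanin of flat alveolar cells, was at 704 and 1477 against 2431 and 3290 (1.47 ± 0.317, adjusted p = 0.0301), and was lost without RA array a, RA-Dex array a or RA-Dex array b (adjusted p = 0.0924 to 0.244). The list held 1 rise without RA array a or RA-Dex array b and 0 without RA-Dex array a. Of 11 airway genes 1 rose, the cytochrome Cyp4b1 (0.69 ± 0.133), also lost without those 3 arrays (adjusted p = 0.0827 to 0.151). No smooth muscle, erythroid, cardiac, skeletal muscle or squamous gene was called in limma. At an unadjusted p under 0.05, 3 airway genes were higher and 0 lower, and 1 smooth muscle gene was higher and 1 lower. At that threshold 1 erythroid, 1 cardiac and 1 squamous gene were higher, and 2 skeletal muscle genes were lower. With 1 array left out 1 erythroid gene was called (RA array a), 1 squamous gene (RA array b) and 1 skeletal muscle gene (either Dex array). The summed cardiac signal was 21350 and 22350 in RA and 22970 and 22640 in RA-Dex, and the erythroid one 86700 and 84680 against 90860 and 86320. Most of the erythroid sum was Hba-a1 alone, with 59650 and 57780 in RA and 62200 and 58490 in RA-Dex. The largest part of the cardiac sum was Actc1.

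**Figure D4:**
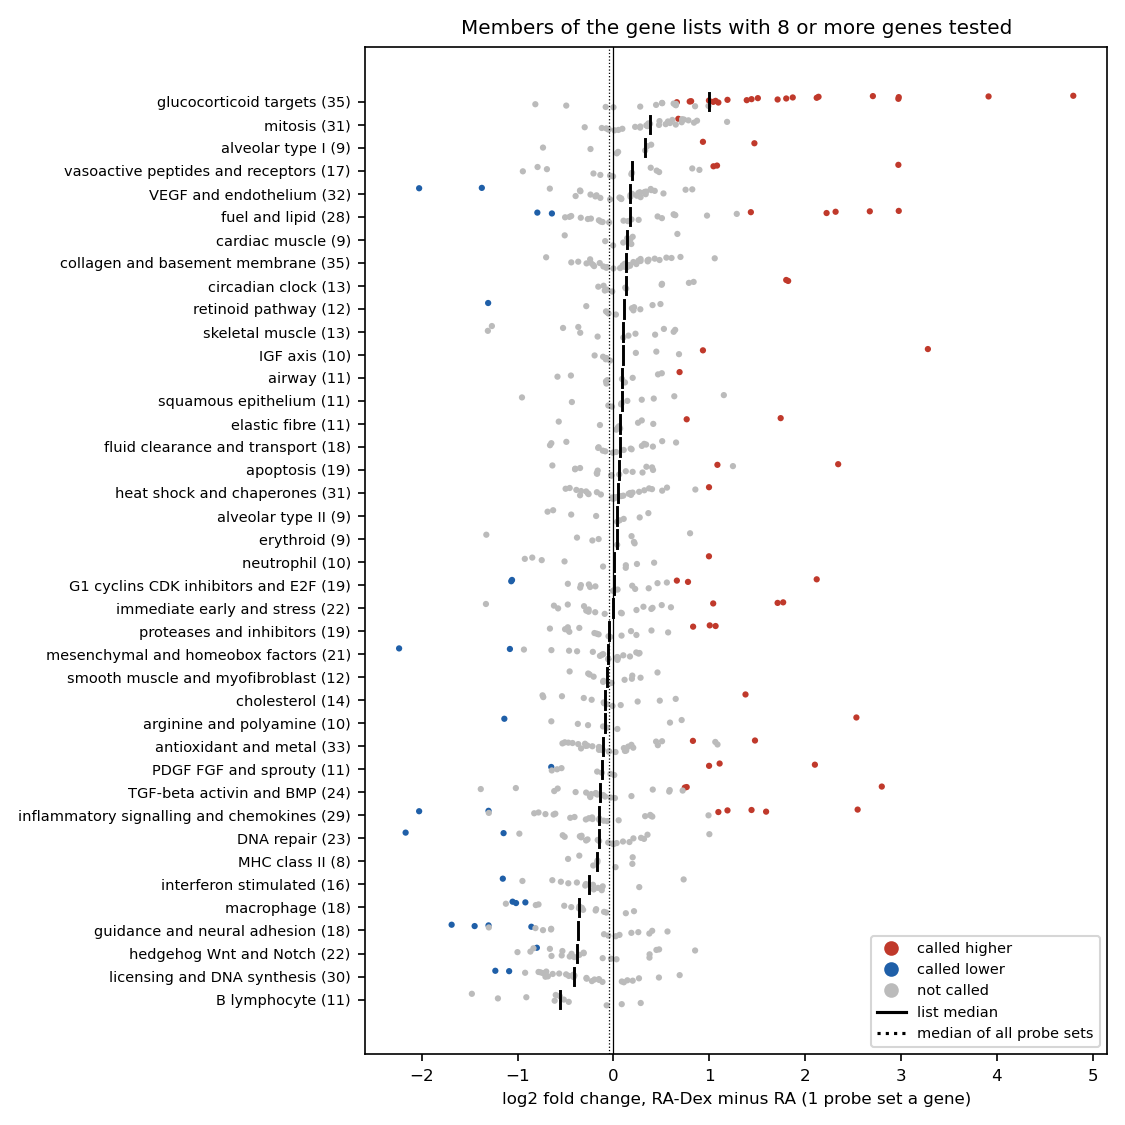
Log2 fold change of RA-Dex minus RA (horizontal axis) of the tested members of each gene list with 8 or more of them, 1 probe set a gene, with the number of members in brackets. Red points were called higher, blue points lower and grey points neither; black bars are list medians, from 0.997 for glucocorticoid targets to -0.56 for B lymphocyte genes, and the dotted line is the median of all probe sets.

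The response was then set beside that of lungs without retinoic acid, which comes from 4 other arrays. In Dex against Dil 146 probe sets rose and 90 fell in limma, which is 2% and 1.23% of those tested. Of the 167 rises after retinoic acid 97 were called in the same direction there, or 58.1% of them and 66.4% of the 146. Of the 89 falls 31 were, or 34.8% of them and 34.4% of the 90. None was called in the opposite direction, and 162 rises (97%) and 83 falls (93.3%) had the same sign. The share with the same sign over all probe sets tested was not computed. How far the shares among calls exceed it is therefore not known. The median rise was 1.18 after retinoic acid and 0.96 without it, and the median fall was -1.05 and -0.66. Because the genes were chosen by their calls after retinoic acid, the larger medians there follow in part from the choice. The direct test of a difference, the interaction, called 1 probe set of 7309 (0.0137%), while 409 had an unadjusted p under 0.05.

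**Figure D5:**
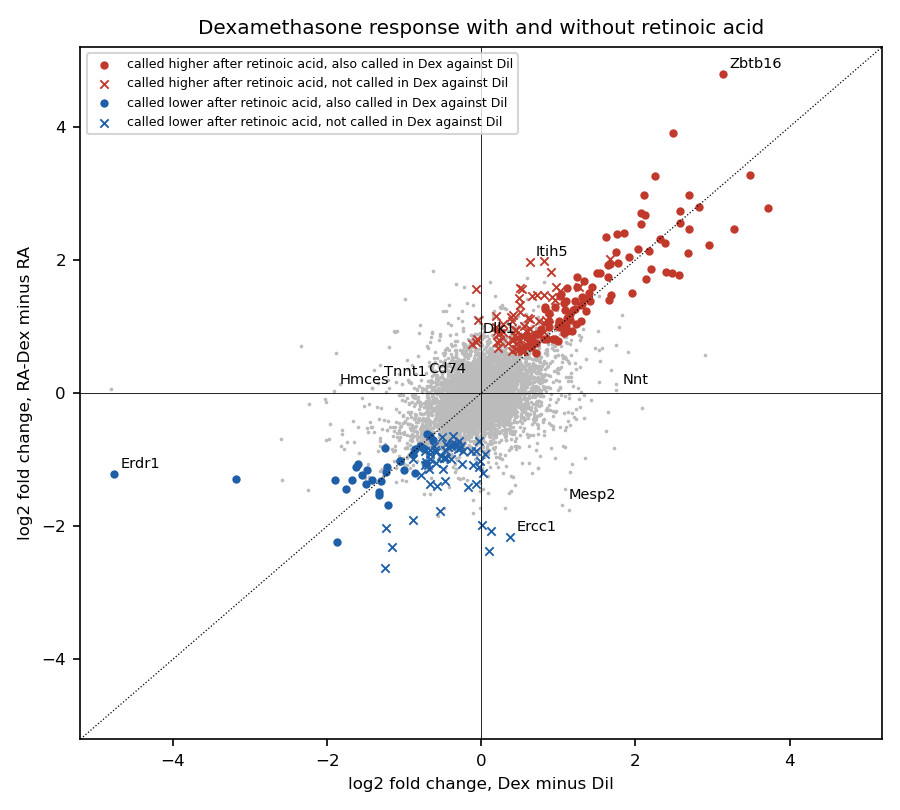
Log2 fold change of RA-Dex minus RA (vertical axis) against Dex minus Dil (horizontal axis) for all probe sets tested, with the line of equality dotted. Dots are calls shared by both comparisons, crosses calls made after retinoic acid alone, and the labels mark the genes with the smallest interaction p; Erdr1 stands at the far left.

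The probe set called was 1 of 2 for Erdr1, a gene named as a regulator of erythroid differentiation. It was at 7064 and 8363 in Dil and at 260 and 307 in Dex, but at 14030 and 12290 in RA and 5591 and 5723 in RA-Dex. The fall was -4.77 without retinoic acid and -1.22 ± 0.159 after it, and the interaction was 3.55 ± 0.225 (adjusted p = 6.8e-05). All 4 groups were separate, with the Dex arrays alone under 1000. The other Erdr1 probe set did not follow, at 818 and 452 in RA and 480 and 475 in RA-Dex, and its interaction of -0.29 was not called (adjusted p = 0.954). The suffix _f_at of the called probe set marks a family of similar sequences, so its signal may hold more than 1 gene.

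The other genes with the smallest interaction p were not called and are given by their values. Itih5, a heavy chain of the inter-alpha-trypsin inhibitor family, was at 249 and 237 in RA and 891 and 1012 in RA-Dex (1.97 ± 0.215, adjusted p = 0.000685). Its signals were 476 and 556 in Dil and 766 and 827 in Dex. Its interaction was 1.34 (adjusted p = 0.578). Here too the RA arrays were the lowest of the 8 and the RA-Dex arrays the highest. Nnt, a mitochondrial enzyme that makes NADPH, was at 444 and 522 in RA and 453 and 542 in RA-Dex (0.04), whereas it rose by 1.75 in Dex against Dil, and its interaction was -1.71 (adjusted p = 0.578). Cd74, the invariant chain of class II antigen presentation, was at 5887 and 5896 in RA and at 7189 and 6380 in RA-Dex, against 7761 and 9965 in Dil and 4953 and 5330 in Dex, with an interaction of 0.98 (adjusted p = 0.578). Of 8 class II genes 0 were called after retinoic acid in limma (1 lower at an unadjusted p under 0.05) and 3 fell without it, and the difference was not called for any of them.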

How the data were processed

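Total RNA of mouse lung had been hybridised to 8 arrays. The authors deposited 1 intensity per probe set and array, on a linear scale. Trimmed means that match between arrays show a scaling before deposit. The sources used here name no software for it, and detection calls were not used. The number of arrays limits the precision: the 95% interval at the median standard error was ± 0.522 on the log2 scale.

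Of 12488 probe sets 66 controls were left out. Signals under the pooled 25th percentile (85.3) were set to it, and probe sets with a mean log2 over all 8 arrays above the 40th percentile (200.8) were tested, without regard to group. Symbols came from the array's annotation, updated by Entrez ID. Of 12422 probe sets 10833 had 1 symbol, 396 several and 1193 none. A model with 1 mean per group over all 8 arrays was fitted in limma 3.58.1 (R 4.3.3, eBayes with an intensity trend, two-sided, 4 residual degrees of freedom), with Benjamini-Hochberg adjustment over 7309 probe sets. Errors are standard errors from the fit.

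Named genes were the 20 largest rises and 20 largest falls, the 4 members of a list with the smallest p (fewer in short lists), the 10 smallest interaction p-values and a short list always given, and not every one of them is printed. In a list each gene stands as its brightest probe set. The members and the 43 lists were chosen with earlier results of these data known. No list was given a test of its own. Same-letter arrays deviated together at 0.103 (RA with RA-Dex) and 0.136 (Dil with Dex) but at -0.221 to -0.098 across the other arms, so letters were not taken as pairs. Alternatives are given in the closing section.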

Additional observations from a re-analysis of the deposited data

Results flagged for a closer look

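The response of 1 Erdr1 probe set differed between lungs with and without retinoic acid in a direct test. Its fall was smaller after retinoic acid by 3.551 on the log2 scale (adjusted p = 6.8e-05 in limma), and the call held under each of the 17 alternatives run for it. The value of a second Erdr1 probe set was -0.29 and was not called (adjusted p = 0.954). What separates the probe sets was not tested.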

How the results depend on the processing

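With 2 arrays a group, the counts depend on single arrays more than on the scaling. The 167 rises were 87 with no filter, 94 with no intensity trend and 107 with a size of at least 1, and 60 to 173 with 1 array left out. The 89 falls were 56 with no filter, 32 with no trend, 54 with the replicate block and 49 with a size of at least 1, and 21 to 78 with 1 array left out. The 236 calls of Dex against Dil were 96 with no filter and 112 with no trend, and 80 to 273 with 1 array left out. The 1 interaction call was 22 with no filter, the first included, and 1 to 2 with 1 array left out. The replicate block left 132 rises, 131 of them shared with the 167, and 171 calls in Dex against Dil. Quantile normalization gave 165 rises and 81 falls, and it turned no direction of a named gene. Of 89 named genes called, 31 kept the call under every alternative but the size threshold, 58 lost it in at least 1 and 0 reversed. Of 1548 list counts recomputed under an alternative, 1354 stayed within 1.5 times, 168 were smaller and 26 larger. Levels near the floor are not measured, and sizes there depend on it. The cause of these shifts was not tested.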

Other observations

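A probe set with no gene symbol resembled the called Erdr1 probe set. It was at 7210 and 6174 in Dil, 490 and 1106 in Dex, 8205 and 7564 in RA, and 2984 and 3474 in RA-Dex. Its interaction of 1.89 did not pass in limma (adjusted p = 0.578).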
